A study of Gallus gallus with 2 samples.

Results

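The domain from 40.84 to 41.23 Mb is a stretch of 390 kb on chicken chromosome 3, from 40840001 to 41230000 in the coordinates of the deposited lists, for which the submitters' processing notes name the build galGal5. Its edges had been chosen from measured values of these same libraries, namely from low signal across short distances, so low crossing at the edges and high proximity between them describe the choice and are given without a test. Its members were all pairs of restriction fragments with both midpoints inside the domain that were not neighbours along the chromosome. They numbered 5407 of 94492 such pairs in the interzone list (5.72%) and 3932 of 65117 in the phalange list (6.04%). The domain held 630 of the 6569 fragments of the locus (9.59%) on 11.3% of its length.

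The lists come from low-input targeted chromatin capture (T2C) of a region of 3.45 Mb around the genes DACT2 and SMOC2, made to compare how this region folds in a forming joint and in the cartilage beside it. The interzone library was made from joint interzones and the phalange library from the adjacent phalanges, both microdissected from hindlimb digit 3 of White Leghorn chick embryos at stage HH32, after 7.5 days of incubation. Each library pooled 100 specimens, so differences between embryos were averaged out before sequencing, and there was 1 library per tissue with no treatment and no genetic change in either. No replicate error could therefore be given, and every comparison below is between 2 libraries.

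In T2C, chromatin is cross-linked and cut, here with ApoI, ends that lie close together in the nucleus are ligated, and the ligation products of 1 locus are pulled out with baits, so each product reports a pair of fragments that were near each other. Vertebrate chromosomes are folded into domains of this size class, in which stretches of DNA meet each other more often than they meet DNA beyond the domain's borders, and such borders are commonly bound by CTCF and cohesin. The interzone is the band of flattened mesenchymal cells that marks the place of a future synovial joint, and the phalange is the cartilage element next to it. SMOC2 encodes a secreted calcium-binding matrix protein and DACT2 a cytoplasmic protein that binds Dishevelled and modulates Wnt and TGF-beta signalling. Gene positions in galGal5 were not used here, so the genes inside the domain are not named.

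The lists give 1 value per fragment pair, the signal, whose normalization is not stated and which holds no read count. The main measure was therefore the number of listed fragment pairs with midpoints 20 kb or more apart. It was set against the number expected from distance alone, which is the share of possible fragment pairs listed at the same distance over the whole locus, multiplied by the possible pairs of the region. A value of 1 thus means as many listed pairs as the locus has at those distances. Intervals are 95% Wilson intervals for counting error, and they treat pairs as independent although pairs share fragments. The sequencing depth is unknown. Inside the domain 2729 such pairs were listed in interzone and 1694 in phalange, out of 177613 possible pairs.

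Fragment length moved with every one of these counts. Over the locus, fragments of at most 100 bp had on average 2.01 listed partners in interzone and 1.27 in phalange, whereas fragments over 1600 bp had 45.4 and 36.6. The domain was cut into longer fragments than the locus, with a median of 365 bp against 325 bp and 16.2 fragments per 10 kb. Its next neighbour, the domain from 41.23 to 41.63 Mb, had a median of 265 bp. A second expectation was therefore computed in which each fragment counts by the mean number of partners of fragments of like length over the locus. It is called length-adjusted below, it was added after the data had been seen, and it stands beside the plain value.

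Across the whole domain, proximity was higher than the distance expectation in both tissues, by a plain measure and by the length-adjusted one. The plain value was 1.45 in interzone (1.40 to 1.51) and 1.60 in phalange (1.53 to 1.68). The length-adjusted value was 1.25 in interzone and 1.32 in phalange. A further measure, the number of listed pairs per pair of 10 kb bins, also added after the data had been seen, gave 1.03 in interzone and 1.14 in phalange. The domain thus stood well above its distance expectation per possible fragment pair and little above it per length of DNA.

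Set beside the 3 domains that follow it to the right, the domain had the highest plain and length-adjusted values in both libraries, but not the highest value per length of DNA. The domain from 41.23 to 41.63 Mb had length-adjusted values of 1.07 in interzone and 1.02 in phalange. The domain from 41.63 to 41.95 Mb had 1.03 in both, and the domain from 41.95 to 42.30 Mb had 1.06 in interzone and 1.11 in phalange. Per pair of 10 kb bins, the domain from 41.23 to 41.63 Mb reached 1.36 in interzone and 1.22 in phalange, above the 1.03 and 1.14 of the domain described here. The domain from 41.63 to 41.95 Mb was also above these, at 1.22 and 1.16. The domain from 41.95 to 42.30 Mb was below them, at 1.02 and 1.09. The order of the domains therefore depended on the measure, and no test was made because all of these edges were chosen on the same data.

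The ratio to the expectation was highest at long distance, between stretches near opposite ends of the domain, while listed pairs exceeded the expected number at every distance. Pairs 20 to 50 kb apart stood at 1.35 times the expected number in interzone and 1.54 times in phalange (length-adjusted 1.16 and 1.28). At 50 to 100 kb the values were 1.33 and 1.48, and at 100 to 200 kb 1.46 and 1.45, so none of these bands up to 200 kb stood above 1.54. Pairs from 200 to 390 kb apart reached 1.89 in interzone (1.73 to 2.06, 511 pairs) and 2.17 in phalange (1.96 to 2.40, 374 pairs), with length-adjusted values of 1.61 and 1.79. The pairs over 300 kb apart stood at 2.43 in interzone (103 pairs) and 3.36 in phalange (91 pairs), length-adjusted 1.86 and 2.42. Pairs this far apart did not enter the 100 kb windows on which the edges had been chosen, but they lie between the same edges. The locus expectation at these distances also includes pairs that cross the chosen edges, so these values are not independent of that choice.

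**Figure D1:**
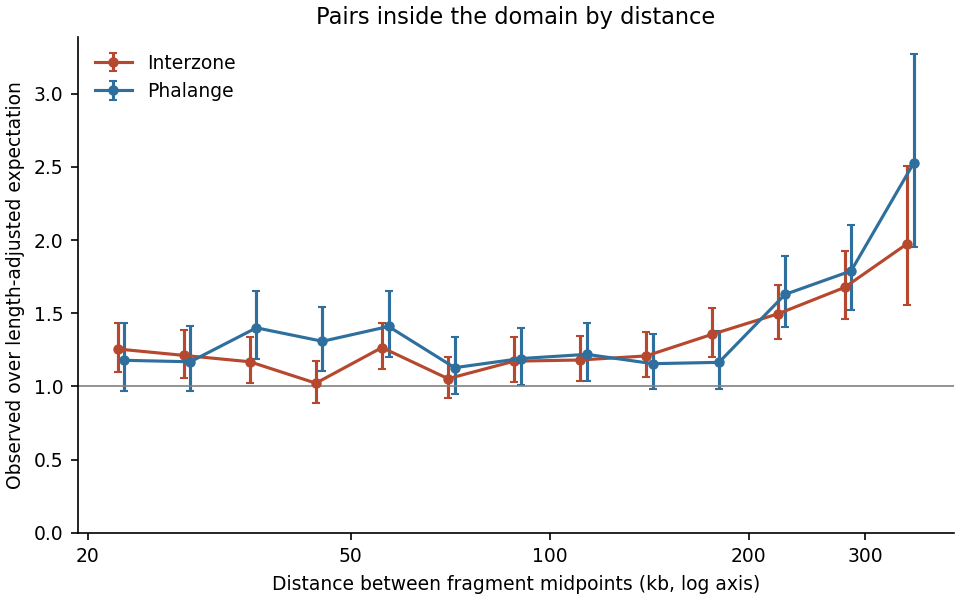
Observed over length-adjusted expected number of listed fragment pairs inside the domain (vertical axis, no unit) by distance between fragment midpoints (horizontal axis, kb, log scale), for interzone and phalange. Bars are 95% Wilson intervals for counting error. Up to 200 kb the values lie between 1.02 and 1.36 in interzone and between 1.13 and 1.41 in phalange. Beyond it they climb, to 1.98 in interzone and 2.53 in phalange in the last distance class.

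A higher value at long distance was also present in 2 of the 3 domains to the right. At 200 kb or more, the length-adjusted value was 1.61 in interzone and 1.79 in phalange in the domain described here, 1.39 and 1.24 in the domain from 41.23 to 41.63 Mb, 1.62 and 1.55 in the domain from 41.63 to 41.95 Mb, and 1.08 and 1.03 in the domain from 41.95 to 42.30 Mb. Per pair of 10 kb bins the same distances gave 1.35 in interzone and 1.49 in phalange here, against 1.77 and 1.49 in the domain from 41.23 to 41.63 Mb. They gave 1.48 and 1.39 in the domain from 41.63 to 41.95 Mb, and 1.17 and 1.09 in the domain from 41.95 to 42.30 Mb. Excess at long distance was therefore shared with the domains from 41.23 to 41.63 Mb and from 41.63 to 41.95 Mb.

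Listing fell with distance inside the domain at a slope, on log10 axes from 20 to 300 kb, of -0.55 ± 0.05 in interzone and -0.47 ± 0.05 in phalange (standard error of the fit over 12 distance classes). Over the whole locus the slopes were -0.65 and -0.53. From 20 to 300 kb the decay was thus shallower inside the domain in each library, by less than 2 of its standard errors. Fitted only up to 200 kb, the slopes inside the domain were steeper, at -0.64 in interzone and -0.58 in phalange. No locus slope was fitted over that shorter range, so a shallower decay is stated for 20 to 300 kb only. The slopes in interzone and phalange were -0.50 and -0.37 in the domain from 41.23 to 41.63 Mb. They were -0.31 and -0.28 in the domain from 41.63 to 41.95 Mb, and -0.59 and -0.52 in the domain from 41.95 to 42.30 Mb. A decay shallower than that of the locus was therefore not particular to the domain described here.

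The places where the excess lay were followed in 13 segments of 30 kb, numbered from left to right, so that segment 1 runs from 40.84 to 40.87 Mb and segment 13 from 41.20 to 41.23 Mb. Plain values of segment pairs counted non-adjacent fragment pairs at any distance, against the share listed at the same segment distance over the locus. Their length-adjusted values kept the limit of 20 kb or more. Of the 78 pairs of different segments, 70 had more listed pairs than expected in interzone and 66 in phalange (58 and 63 with length adjustment). The 10 pairs that join segments 2 and 3 with segments 9 to 13, grouped after the map had been seen, had a median length-adjusted value of 2.07 in interzone and 1.78 in phalange. The 12 pairs with segment 1 had medians of 0.90 in interzone and 1.11 in phalange, and the other 56 pairs 1.19 and 1.25.

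**Figure D2:**
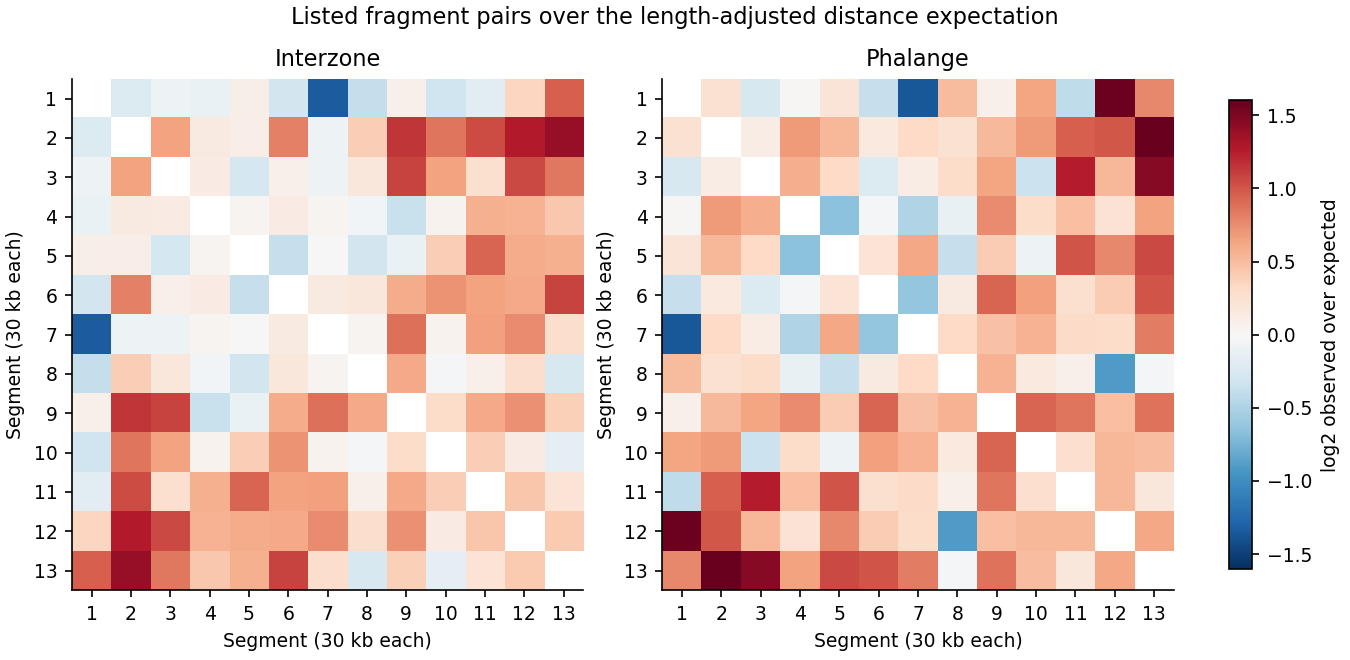
Log2 of observed over length-adjusted expected number of listed pairs for each pair of 30 kb segments (both axes, segment number from the left edge), in interzone (left) and phalange (right). The diagonal is left blank. Red cells gather in the corner where segments 2 and 3 meet segments 11 to 13, with segments 2 and 13 at 2.63 in interzone and 3.03 in phalange on the linear scale.

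Segments 2 and 13 had the highest plain and length-adjusted values of the map in both libraries. They run from 40.87 to 40.90 Mb and from 41.20 to 41.23 Mb and lie 11 segments apart. They shared 31 listed fragment pairs in interzone and 25 in phalange, which is 4.05 and 5.40 times the plain expectation. The length-adjusted values were 2.63 and 3.03, and the values per pair of 10 kb bins 1.83 and 2.42, so the pair stayed above 1 by each measure with a smaller size than the plain one. By the last measure it was not the highest in interzone, where segments 2 and 12 had 2.17 and segments 3 and 12 had 2.04. In phalange segments 1 and 12 had the same value of 2.42.

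Next in interzone came segments 2 and 12, with 38 listed pairs and a plain value of 3.22, against 22 listed pairs and 2.99 in phalange. Segments 1 and 13, the outermost pair, followed with 2.92 in interzone and 2.78 in phalange. Segments 2 and 9 had 2.73 in interzone and 1.88 in phalange, and segments 6 and 13 had 2.71 in both. In each of these pairs the value was above 1 in both libraries, and it remained so with length adjustment, at 1.44 or more.

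The highest pairs of the phalange library after segments 2 and 13 all ended in segments 12 or 13. Segments 3 and 13 had 2.42 in interzone and 4.03 in phalange. Segments 1 and 12 had 1.38 in interzone and 3.56 in phalange, on 16 and 25 listed pairs. Segments 5 and 13 had 2.17 in interzone and 3.33 in phalange, and segments 7 and 13 had 1.98 and 3.23. Length-adjusted values were 1.80 in interzone and 2.74 in phalange for segments 3 and 13, and 1.27 and 2.97 for segments 1 and 12. They were 1.49 and 2.08 for segments 5 and 13, and 1.21 and 1.76 for segments 7 and 13. Per pair of 10 kb bins segments 3 and 13 had 1.49 and 2.42, and segments 1 and 12 had 0.94 and 2.42. Segments 5 and 13 had 0.84 in interzone and 1.27 in phalange, and segments 7 and 13 had 0.78 and 1.28. By this measure all but segments 3 and 13 were thus below 1 in interzone.

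By plain value, the lowest pairs of interzone lay in the left and central segments. They were segments 4 and 9 with 0.68, against 1.38 in phalange, segments 5 and 6 with 0.86, against 1.22 in phalange, and segments 1 and 4 with 0.89, against 0.98 in phalange. In phalange the lowest were segments 8 and 12, at 1.57 in interzone and 0.73 in phalange, segments 4 and 7, at 1.08 in interzone and 0.78 in phalange, and segments 4 and 6, at 0.94 in interzone and 0.81 in phalange. Length-adjusted values were 0.78 in interzone and 1.69 in phalange for segments 4 and 9, and 0.77 and 1.16 for segments 5 and 6. For segments 1 and 4 they were 0.93 and 1.02, and for segments 8 and 12 1.22 and 0.53. Segments 4 and 7 had 1.03 and 0.72, and segments 4 and 6 had 1.09 and 0.99. Per pair of 10 kb bins segments 4 and 6 were above 1 in both, at 1.26 and 1.09. Segments 1 and 7 were noticed after the values were seen and listed too rarely to be ranked. They had 6 fragment pairs in interzone and 4 in phalange. This is 0.55 and 0.60 of the plain expectation and 0.40 and 0.39 of the length-adjusted one.

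Pairs that were high in both libraries were more frequent in the domain than in the locus. Of the segment pairs 1 to 12 segments apart with at least 20 listed pairs, 13 of 76 in the domain were at 1.5 times the length-adjusted expectation or more in both libraries, against 6.06% over the whole locus. Among those 8 to 12 segments apart it was 6 of 14 in the domain, against 9.8% over the locus. Of the 13 pairs, 4 contained segment 2 and 9 ended in segments 11 to 13. Segments farther right end more pairs by the numbering alone, and these counts were not set against the shares among the 76. All 13 were above 1 in both libraries per pair of 10 kb bins, but 5 of them reached 1.5 there. These shares describe a domain chosen for high proximity and were not tested.

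When segments were ranked by the mean over both libraries of their plain value against the rest of the domain, segment 13 came first with 1.96 in interzone and 2.55 in phalange, then segment 2 with 1.91 and 2.03, then segment 12 with 1.70 and 1.73. Segments 13 and 2 also had the longest fragments, with medians of 630 and 504 bp, and their length-adjusted values were 1.39 in interzone and 1.69 in phalange for segment 13 and 1.47 and 1.46 for segment 2. The 3 segments with the lowest means were segment 4, with 1.05 in interzone and 1.12 in phalange, segment 1, with 1.12 and 1.46, and segment 6, with 1.34 and 1.27. Segment 4 had the shortest fragments, with a median of 241 bp. With length adjustment the order changed. Segment 4 then had 1.09 in interzone and 1.19 in phalange and segment 6 had 1.27 and 1.17, whereas segment 8 had 1.09 and 1.10. Segment 9 had 1.47 in interzone and 1.60 in phalange, as high as segment 2 in interzone and above it in phalange.

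Segment 1, just inside the left edge, differed from segment 2 next to it. Its length-adjusted value against the rest of the domain was 0.93 in interzone and 1.15 in phalange, whereas segment 2 had 1.47 and 1.46. In phalange the value of segment 1 was close to those of segments 6, 7 and 8, which had 1.17, 1.14 and 1.10, and in interzone it was the lowest of the 13 segments.

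The domain was also grouped into a left part (40.84 to 40.96 Mb), a middle part (40.96 to 41.11 Mb) and a right part (41.11 to 41.23 Mb). The ratio to the expectation was highest between its ends. As a share of possible pairs, listing was higher within each end part. In interzone 430 of 41292 possible pairs were listed between the ends, against 345 of 16710 within the left part and 307 of 11857 within the right part. In phalange these were 303, 204 and 194. The left and right parts stood at 1.78 times the expected number in interzone (1.62 to 1.95) and 1.97 times in phalange (1.76 to 2.21), length-adjusted 1.57 and 1.70. The middle and right parts stood at 1.69 in interzone and 1.85 in phalange, length-adjusted 1.38 and 1.42. The left and middle parts, although closer together than the ends, stood at 1.20 in interzone and 1.22 in phalange, length-adjusted 1.10 and 1.08. Per pair of 10 kb bins the ends still had the highest value, 1.43 in interzone and 1.59 in phalange, and the left and middle parts were below 1 in both, at 0.94.

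Seen from the left part, the ratio to the expectation climbed towards the right edge, peaked around it and rose again farther out. The length-adjusted value was 0.88 in interzone and 0.87 in phalange for the window from 41.02 to 41.05 Mb, and 1.86 and 2.24 for the last window inside, from 41.20 to 41.23 Mb. In the window from 41.23 to 41.26 Mb, outside the domain, it was 1.98 in interzone and 2.10 in phalange. It then went down to 1.55 and 1.39 in the window from 41.26 to 41.29 Mb and to 1.17 and 0.91 in the next. Farther right, the windows from 41.53 to 41.62 Mb had 1.64, 1.48 and 1.44 in interzone and 1.30, 1.55 and 1.40 in phalange. Towards the other side, the 8 windows within 240 kb left of the left edge lay between 0.42 and 0.76 in interzone and between 0.52 and 0.80 in phalange.

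Seen from the right part, the highest window was the one from 40.87 to 40.90 Mb, with 2.19 in interzone and 2.08 in phalange. The window just inside the left edge, from 40.84 to 40.87 Mb, had 1.17 in interzone and 1.72 in phalange. The window just outside it, from 40.81 to 40.84 Mb, had 1.10 in interzone and 1.03 in phalange. Across the right edge, the window from 41.23 to 41.26 Mb had 0.76 in interzone (0.64 to 0.90) and 0.88 in phalange (0.70 to 1.09). The right part thus met the DNA next to it less than expected in interzone, while the interval in phalange included 1. The left part met the same window more than expected in both libraries.

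**Figure D3:**
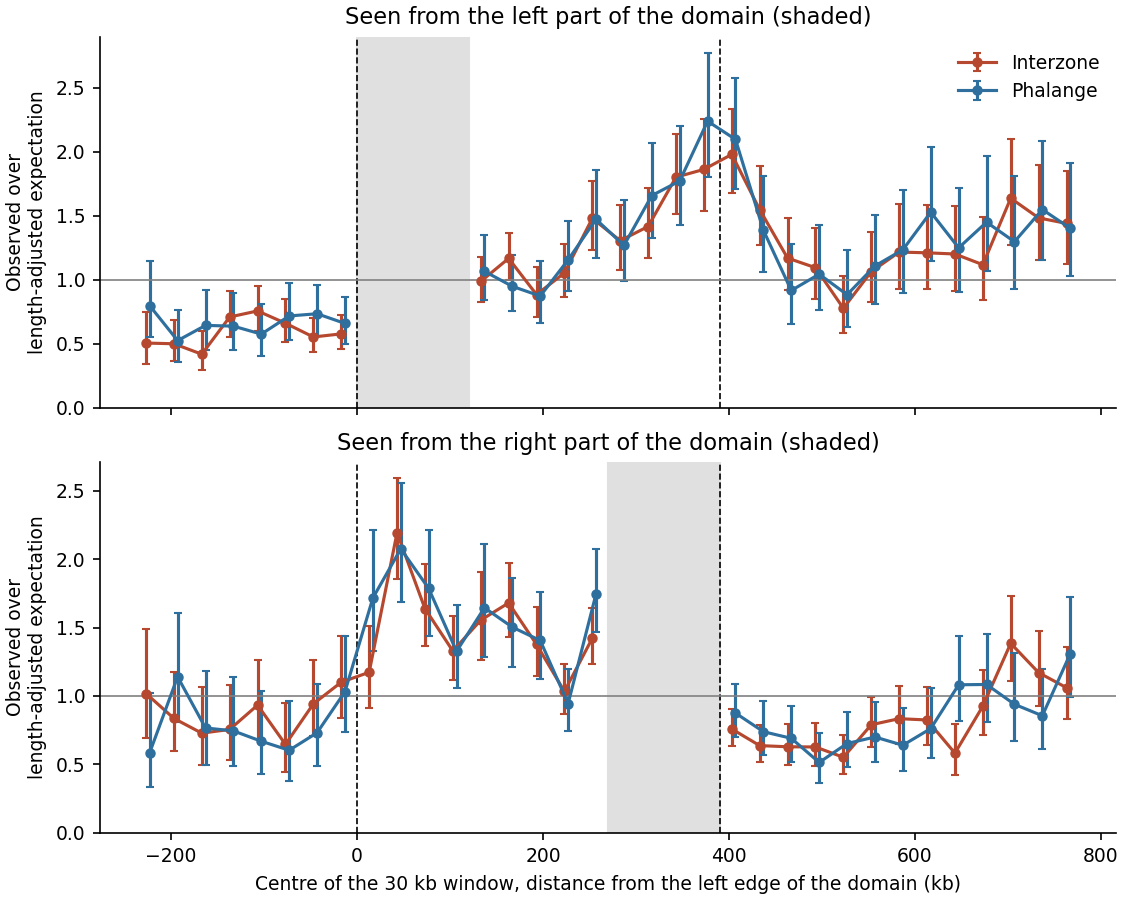
Observed over length-adjusted expected number of listed pairs (vertical axes, no unit) between the left part of the domain (upper panel, shaded) or the right part (lower panel, shaded) and windows of 30 kb (horizontal axis, kb from the left edge). Dashed lines are the edges of the domain, and bars are 95% Wilson intervals for counting error. The left part peaks around the right edge, at 1.98 in interzone in the first window beyond it. In phalange its peak is 2.24 in the last window inside. The right part peaks in the window from 40.87 to 40.90 Mb.

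Low crossing marked both edges, as it had to from the way they were chosen. For pairs with both fragments within 100 kb of a position and on opposite sides of it, the left edge had 0.76 in interzone (0.66 to 0.88) and 0.91 in phalange (0.76 to 1.08), length-adjusted 0.61 and 0.69. The right edge had 0.72 in interzone (0.64 to 0.82) and 0.74 in phalange (0.64 to 0.87), length-adjusted 0.71 and 0.73. The lowest length-adjusted value near the left edge was at 40.85 Mb in interzone and at 40.84 Mb in phalange. Near the right edge it was at 41.27 Mb in interzone, with 0.68, and at 41.24 Mb in phalange, with 0.64. The lowest plain values there lay farther outside the domain, with 0.56 at 41.30 Mb in interzone and 0.52 at 41.29 Mb in phalange.

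The low crossing spread over several positions at both edges. Just inside and just outside the right edge, at 41.22 and 41.24 Mb, the length-adjusted crossing was 0.76 and 0.69 in interzone and 0.85 and 0.64 in phalange. It stayed at 0.73 or less as far as 41.29 Mb in interzone and in phalange. At the left edge it lay between 0.60 and 0.72 in interzone and between 0.69 and 0.84 in phalange from 40.82 to 40.87 Mb, and just outside and just inside, at 40.83 and 40.85 Mb, it was 0.68 and 0.60 in interzone and 0.73 in phalange at both. Inside the domain, crossing was highest at 41.07 Mb, with 1.41 in both libraries. It had a shallow low between 40.96 and 41.01 Mb, with 1.01 at 41.01 Mb in interzone and 1.03 at 40.96 Mb in phalange. On its left side this low was within counting error. Plain values in interzone were 1.12 (1.01 to 1.25) at 41.01 Mb and 1.15 (1.04 to 1.27) at 40.94 Mb.

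**Figure D4:**
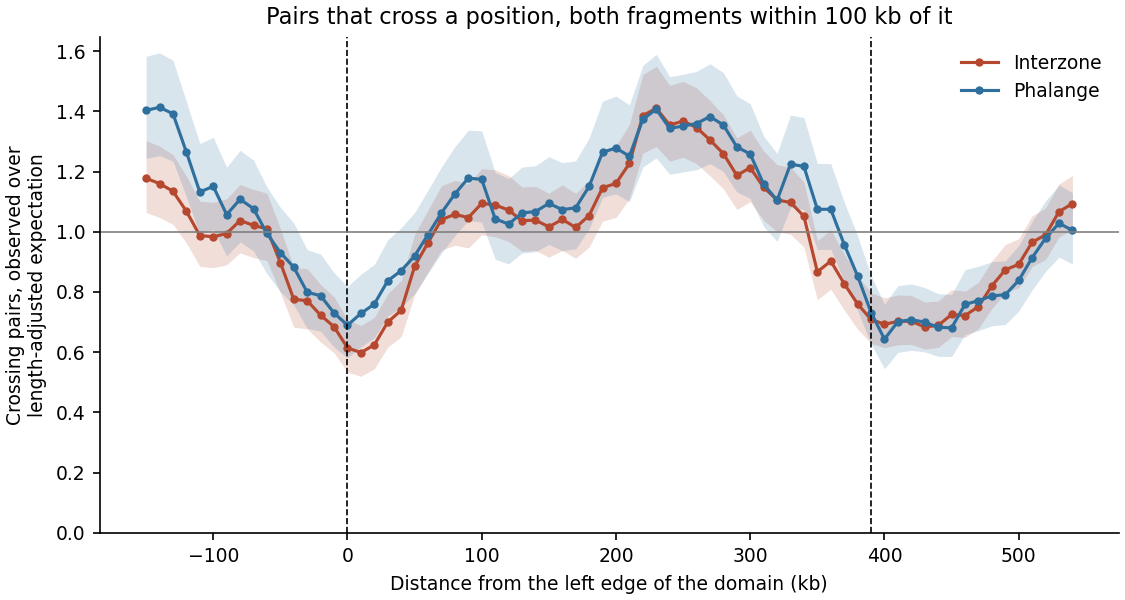
Observed over length-adjusted expected number of listed pairs that cross a position with both fragments within 100 kb of it (vertical axis, no unit), every 10 kb along the domain and its surroundings (horizontal axis, kb from the left edge), for interzone and phalange. Dashed lines are the edges, and bands are 95% Wilson intervals for counting error. The curves are lowest around both edges and peak in the right interior, at 1.41 in both libraries, a height that phalange also reaches 140 kb left of the domain.

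Of the listed pairs 20 kb or more apart with at least 1 fragment in the domain, 22.7% in interzone (22.0 to 23.5%) and 20.1% in phalange (19.3 to 21.0%) stayed inside it. Distance and fragment length alone gave 18.4% in interzone and 16.0% in phalange. Among the pairs that left the domain, those to the left flank (40.15 to 40.84 Mb) were fewer than the length-adjusted expectation, at 0.73 in interzone and 0.79 in phalange. Those to the domain from 41.23 to 41.63 Mb were near it, at 0.93 in interzone and 0.97 in phalange.

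Farther to the right the domain's contacts rose above the distance expectation again. With the domain from 41.95 to 42.30 Mb, which begins 720 kb away, the length-adjusted value was 1.31 in interzone and 1.29 in phalange. With the domain from 42.30 to 42.94 Mb it was 1.32 in interzone and 1.34 in phalange. With the right flank beyond 42.94 Mb it was 1.00 in interzone and 0.99 in phalange. When the expectation was weighted by the listed pairs of each 10 kb bin instead, the values for the first of these domains were 1.12 in interzone and 1.03 in phalange, and for the second 1.16 and 1.12.

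Single fragments differed widely in their number of partners. The median fragment of the domain had 8 listed partners 20 kb or more away inside it in interzone and 4 in phalange, and 79 fragments in interzone and 97 in phalange had none. One fragment in segment 9, from 41090692 to 41094312 and 3621 bp long, had the most in both libraries, with 36 partners in interzone and 34 in phalange. The length-adjusted expectation for it was 15.6 in interzone and 11.2 in phalange, so it was above what distance and length gave in both.

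Of the other leading fragments, some had similar numbers in both libraries and some did not. In interzone they were the fragments from 41008956 to 41012971 (34 partners in interzone, 19 in phalange), from 41100109 to 41103584 (34 and 13), from 40901409 to 40902814 (33 and 12) and from 41014665 to 41015142 (32 and 12). In phalange they were the fragments from 41117700 to 41118595 (18 partners in interzone, 27 in phalange), from 40853636 to 40858606 (26 and 25), from 40867560 to 40869161 (12 and 25) and from 41162778 to 41167825 (28 and 25). Of these 8 fragments, all had at least 12 partners in either library, above the median of the domain. They were picked as the highest of a library, and several were long, up to 5048 bp. In the library that ranked them, the length-adjusted expectation lay between 8.53 and 15.4 partners for the interzone fragments. For the phalange fragments it lay between 6.71 and 10.3. Their expectation in the other library is not given here.

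Few individual fragment pairs were listed in both libraries, and their share in the domain was above that of the locus at some distances and below it at others. At 20 kb or more there were 89, or 3.26% of the interzone pairs this far apart in the domain and 5.25% of those in phalange, against 2.12% and 3.65% over the locus at 20 to 390 kb. At 200 to 390 kb there were 15, which is 2.94% of the interzone and 4.01% of the phalange pairs, against 1.29% and 2.04% over the locus. At 100 to 200 kb the order was the other way, with 10 pairs, or 1.39% in interzone and 2.36% in phalange, against 1.75% and 2.93%. Where more of the possible pairs are listed in each library, more fall in both lists without any further likeness. The domain's plain value was 1.45 in interzone and 1.60 in phalange, and at 200 to 390 kb 1.89 and 2.17. Longer fragments are also listed more often in each library. No overlap expected from listing density was computed, and the parts of density and of fragment length in these overlaps were not tested.

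Among the pairs in both lists with the highest signals, 3 joined fragments 200 kb or more apart. The fragment from 40842102 to 40843064 in segment 1 was paired with the fragment from 41083817 to 41085405 in segment 9, at 242 kb, with a signal of 0.000401 in interzone and 0.000400 in phalange. The fragment from 41003630 to 41004122 in segment 6 was paired with the fragment from 41211084 to 41211736 in segment 13, at 208 kb, with 0.000348 in interzone and 0.000389 in phalange. The fragment from 40984343 to 40984757 in segment 5 was paired with the fragment from 41184011 to 41185462 in segment 12, at 200.2 kb, with 0.000341 in interzone and 0.000375 in phalange. The median signal of the domain's pairs 20 kb or more apart was 0.000244 in interzone and 0.000232 in phalange, and these pairs were above it by the way they were picked. The other 7 of the 10 highest pairs spanned 20.8 to 103.6 kb.

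Over the whole domain, interzone stood slightly below phalange by the plain measure. The log2 ratio of the plain values, interzone over phalange, was -0.14 (-0.23 to -0.05), and -0.08 with length adjustment. When the expectation was weighted by the listed pairs of each 10 kb bin, the ratio turned to 0.054. Across the 78 segment pairs the plain values of the libraries had a Spearman correlation of 0.60, as a description, against 0.68 over 1314 segment pairs of the locus. With length-adjusted values the correlation in the domain was lower, at 0.49. The libraries share the genome, the fragment lengths and the baits, and the part of each of these in the correlation was not tested.

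Segment by segment, the libraries were compared by Fisher's exact test (two-sided), which set the fragment pairs listed for a segment pair against all others listed at that segment distance, with Benjamini-Hochberg adjustment over the locus. Non-adjacent fragment pairs at any distance were counted, and pairs within the same segment were tested too. None of the 89 tested segment pairs of the domain passed an adjusted p of 0.05, against 0.118% of 1697 pairs over the locus. The smallest adjusted p in the domain was 0.702 by Fisher's exact test. Under an unadjusted 0.05 were 5 of the 89 pairs, of which 1 was higher in interzone. Over the locus it was 78 of 1697 pairs, of which 43 were higher in interzone. The test compares 2 libraries and not 2 tissues.

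By size alone, 1 of the 89 pairs was at least 2-fold higher in interzone, against 3.77% over the locus, and 4 were at least 2-fold higher in phalange, against 2.89%. The log2 ratios here use a pseudocount of 0.5 listed pairs. The pair that was higher in interzone was segments 8 and 12, with 33 listed pairs in interzone and 9 in phalange and a log2 ratio of 1.04. Segments 3 and 10 (0.91) and segments 3 and 12 (0.52) came next. On the phalange side segments 1 and 12 led with -1.35, on 16 listed pairs in interzone and 25 in phalange, followed by segments 3 and 11 with -1.03 and segments 4 and 9 with -1.02. The fourth, segments 1 and 10, had -1.01 on 11 and 15 listed pairs. The domain's share was thus below that of the locus on the interzone side and above it on the phalange side, on 1 and 4 pairs, and each of these differences rested on fewer than 40 listed pairs in a library.

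**Figure D5:**
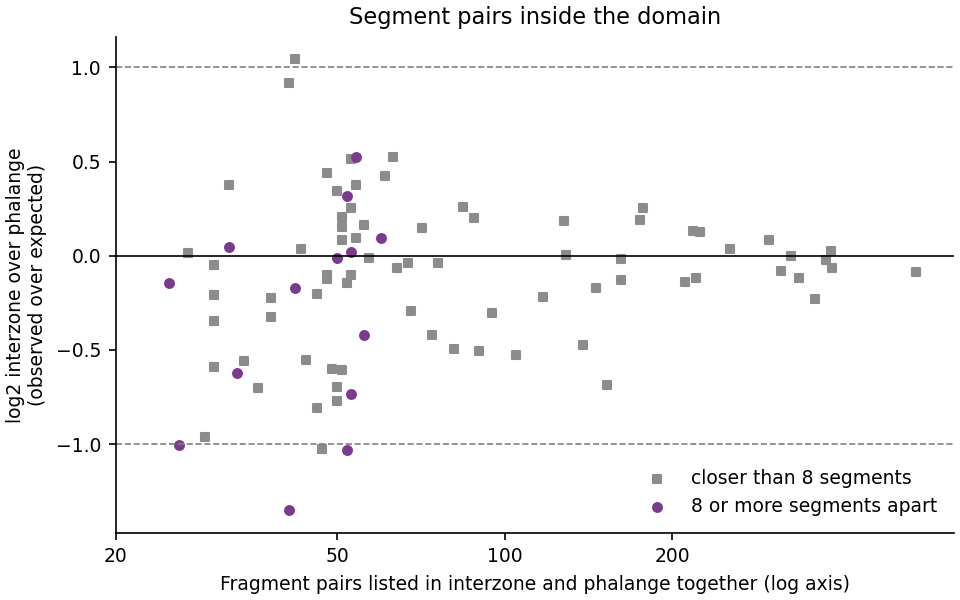
Log2 ratio of observed over expected, interzone over phalange (vertical axis), against the number of fragment pairs listed in interzone and phalange together (horizontal axis, log scale), for the 89 tested segment pairs of the domain. Dashed lines mark 2-fold. 1 pair lies above the upper line and 4 lie below the lower one, and no pair passed the adjusted Fisher's exact test.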

How the data were processed

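The authors deposited 1 list of fragment pairs per library with a signal per pair, per the file headers. Its normalization is not given in the sources used here. The submitters' processing notes name galGal5, FastQC and BWA, without versions. Each tissue had 1 library of 100 pooled specimens.

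Fragments of both lists were numbered by start and adjacent pairs left out. Listed pairs 20 kb or more apart were counted against the whole locus in 10 distance classes per decade, with Python 3.11.15, numpy 2.4.6, scipy 1.17.1 and pandas 2.3.3. Plain values and tests of segment pairs instead took non-adjacent pairs at any distance, against the same segment distance. Length adjustment used 20 length classes. Segments were 30 kb, tested with at least 20 listed pairs in both libraries together. Named were, per library, the 5 highest and 3 lowest segment pairs and the 5 fragments with most partners, the 3 highest and 3 lowest ratios, the 3 highest and 3 lowest segments, and the 10 pairs in both lists with the highest lower signal. The code was tested on simulated data. Members and lists were chosen with earlier results of these data known.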

Additional observations from a re-analysis of the deposited data

Results flagged for a closer look

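Pairs of adjacent fragments were left out of every comparison, but they carry most of the deposited signal. Inside the domain they held 90.0% of the signal in interzone, on 627 pairs, and 88.8% in phalange, on 629 pairs. Over the whole locus the shares were 87.4% in interzone and 87.0% in phalange. Of the signal of the non-adjacent pairs inside the domain, pairs under 5 kb apart held 81.7% in interzone and 92.3% in phalange, so the long-range pairs described above rest on a small part of it.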

How the results depend on the processing

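With 1 library per tissue no replicate could be left out. The read depth is unknown, and the number of listed pairs per segment pair limits the size of difference that could be seen. No paired analysis was possible because each tissue had 1 library. Of 100 alternative values of the main results, 70 stayed within the main interval, within 2 standard errors of a slope or within 1.5 times a count, 28 moved and 2 changed direction. Some of the 70 carry no information. A setting that thinned only the interzone list could not change the phalange values. Leaving out the highest 0.1% of signals left the domain values and the shares kept inside exactly as they were.

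By summed signal the domain stood at 1.30 in interzone and 1.36 in phalange, the right edge in phalange at 0.61, and the shares kept inside at 21.9% and 19.2%. With the expectation weighted by 10 kb bin totals the domain stood at 1.15 in interzone and 1.11 in phalange, their log2 ratio turned to 0.054, the left edge stood at 0.64 and 0.65 and the right edge at 0.58 and 0.60. With both edges 20 kb farther inward the right edge stood at 0.89 in interzone and turned to 1.04 in phalange, with shares of 21.3% and 18.2%. Weighting by fragment length gave 1.25 in interzone and 1.32 in phalange for the domain and 0.61 and 0.69 for the left edge. Per pair of 10 kb bins the domain stood at 1.03 and 1.14, and segments 5 and 13 (0.84) and 7 and 13 (0.78) turned below 1 in interzone. The share kept inside was 36.7% in interzone and 36.7% in phalange over every distance, and 26.5% and 25.6% with adjacent pairs kept. The phalange slope up to 200 kb was -0.58. With 10 kb segments 3 pairs passed 2-fold (3.19%, against 4.16% over the locus) and the map correlation was 0.20. From 5 kb, 205 fragment pairs were in both lists. No setting gave a pair past the adjusted Fisher's exact test in the domain, with 2 to 5 pairs under an unadjusted 0.05. The locus count under 0.05 was taken for the main setting only, at 78 of 1697 pairs. The cause of these changes was not tested.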

Other observations

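The 39 bins of 10 kb in the domain held between 1 and 29 fragments, with a median of 15. The bin from 40970001 to 40980000 held a single midpoint, of a fragment of 8033 bp from 40972066 to 40980098, and had the fewest listed pairs of the domain, 72 in interzone and 62 in phalange, against medians of 390 and 264 per bin. This fragment lies in segment 5, between 40.96 and 41.01 Mb, where crossing had a shallow low. A link between the fragment and the low was not tested.

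For 95.3% of the domain's pairs 20 kb or more apart in interzone and 95.2% in phalange, the reciprocal of the signal was a whole number to within 0.0001.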
